A study of Homo sapiens with 9 samples.

Results

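The lamins and the membrane proteins that hold them to the nuclear rim were followed through 10 transcripts, LMNA, LMNB1, LMNB2, LBR, EMD, TMPO, SUN1, SUN2, SYNE2 and LEMD3. They were found by exact match of their gene symbols among the 60420 gene IDs of each deposited file, each symbol matched 1 ID, and all 10 were above 0 and entered the test across 13825 genes. The cells were A375, a human melanoma line, and their RNA was taken on day 7 after SPANX knockdown. SPANX proteins are cancer-testis antigens, made in developing sperm and switched on again in some tumours. Construct 86, construct 87 and an EV control gave 3 libraries each, all counted from transcript 3' ends (QuantSeq). The labels give no sequence or type for either construct, and they do not say whether the 3 libraries of a group came from separate cultures, so a p-value speaks of library-to-library spread alone, and that spread could be technical. The study's title links SPANX to lamin A/C and nuclear shape, and the comparisons below ask how the transcripts of this structure stood in the knockdown cells.

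Lamins are intermediate filament proteins that assemble into a meshwork, the lamina, on the inner face of the nuclear envelope. A-type lamins (lamin A and lamin C, both from LMNA) are known for giving the nucleus stiffness and are also found in the nucleoplasm, while B-type lamins stay bound to the membrane through a lipid anchor. Membrane partners tie this meshwork to chromatin on one side (LBR and the LEM domain proteins, which bind the chromatin protein BAF) and to the cytoskeleton on the other (the LINC complex of SUN proteins and nesprins). LMNB1 and LBR are known to be low in senescent cells, and lamin A to be abundant in stiff tissues.

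The knockdown itself could be read from 2 SPANX genes above 0, SPANXC and SPANXD. Their sum was 36.2 to 103.2 normalised reads (reads scaled to a common library size) with construct 86 and 178.1 to 611.1 in EV libraries, 6.91-fold lower, and it was 24.1 to 40.9 with construct 87, 11.9-fold lower than in EV. Both sets lay below all EV libraries, with an exact two-sided permutation p of 0.1 each, the smallest that 3 libraries against 3 allow. Recovered depth was 11.31 to 15.56 M reads per library. Of 10 melanocyte lineage markers 6 were above 0, and MLANA, TYR, DCT and TYRP1 were listed at 0. The sum of the 10 was 16168.2 to 22813.4 normalised reads with construct 86, 9122.3 to 13360.1 with construct 87 and 3362.5 to 6850.3 in EV libraries. Fibroblast markers (7 of 8 above 0, THY1 at 0) summed to 1112.0 to 1416.8 with construct 86, 932.3 to 1124.1 with construct 87 and 428 to 483.7 in EV libraries. Keratinocyte markers (2 of 6 above 0, with KRT5, KRT1, CDH1 and TP63 at 0) summed to 696.7 to 1177.3 with construct 86, 1355.9 to 1808.7 with construct 87 and 1037.6 to 2201.8 in EV libraries. PECAM1, CDH5 and VWF of endothelium were listed at 0. The part of these marker shifts in the results below was not tested.

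LMNB1 and LBR fell with construct 86, TMPO fell with construct 87, and LMNA passed the test with neither. With construct 86, 2 of the 10 transcripts were called, both lower, beside 35.6% of all tested genes in either direction and 17.6% lower. With construct 87, 1 of 10 was called, lower, beside 10.3% of all genes and 4.43% lower. Counted in either direction, the construct 86 share lies under the background and the construct 87 share at it, and with so few calls the results are given gene by gene. Between the constructs, 4 of 10 differed (EMD higher, and SUN1, SUN2 and LEMD3 lower, with construct 87 than with construct 86), beside 25.6% of all genes, 12.7% higher and 12.9% lower. Taking the mean of both constructs against EV, 3 of 10 were called (LMNB1, TMPO and LBR, all lower), beside 24.2% in either direction and 11.1% lower. The median log2 fold change of the 10 was -0.25 with construct 86, against -0.04 over all genes, and -0.44 with construct 87, against -0.00 over all genes. A gene was called at a Benjamini-Hochberg adjusted p under 0.05 in limma. The background with construct 87 rests on single libraries: without construct 87 replicate 1, 369 genes passed in place of 1430, without EV replicate 1 it was 521, without construct 87 replicate 2 it was 608, and without EV replicate 2 it was 2554. Without construct 86 replicate 2, the genes called numbered 3056 in place of 4925 for construct 86 against EV and 2207 in place of 3534 between the constructs. For the mean of both constructs, the count was 3339, and leaving out EV replicate 1 gave 1459, leaving out replicate 2 of construct 86 gave 2122 and leaving out replicate 1 of construct 87 gave 2194.

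Libraries that share a replicate number tended to deviate together, only weakly so for replicate 1 of construct 87 and EV (correlation 0.177). A fit with the number as a block narrowed the errors of most of these genes. With the block, 6 of 10 passed with construct 86, beside 55.3% of all genes. It was 6 of 10 with construct 87, beside 31%, and 7 of 10 between the constructs, beside 44.1%. For the mean of both, it was 4 of 10, beside 47%. In each comparison the block added calls and removed none among the 10, and the added calls are given gene by gene.

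**Figure D1:**
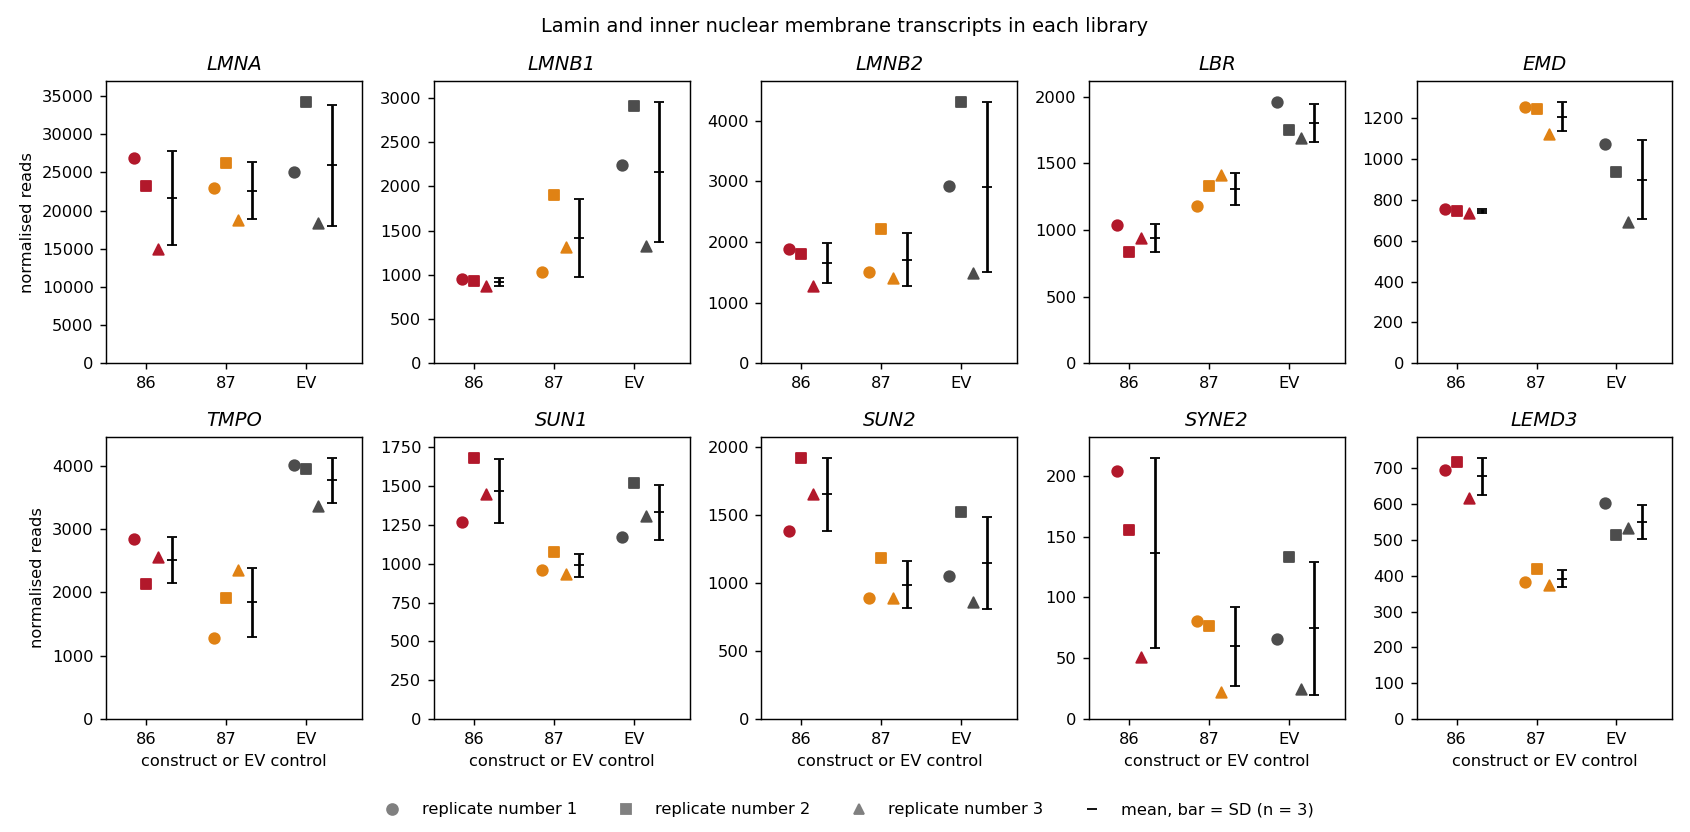
Normalised reads (y axes, linear, from 0) of the 10 transcripts in each library of construct 86, construct 87 and the EV control (x axes), with marker shape giving the replicate number and black bars the mean and SD of 3 libraries. LBR and TMPO lie below every EV library with both constructs, and LMNA, LMNB2 and SYNE2 overlap between all groups.

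LMNA (ENSG00000160789.19) encodes lamins A and C, which a gene-level count of 3' ends does not tell apart. It stood at 26897, 23228 and 14920 normalised reads in construct 86 replicates 1, 2 and 3, at 22931, 26180 and 18739 with construct 87, and at 25071, 34234 and 18446 in EV libraries. The 3 groups overlapped, and replicate number 3 was the lowest in each of them. The means were 21682 ± 6136 with construct 86, 22617 ± 3730 with construct 87 and 25917 ± 7928 in EV (SD, n = 3 each). The log2 fold change was -0.25 with construct 86 (95% interval -0.92 to 0.41, adjusted p = 0.535) and -0.16 with construct 87 (-0.83 to 0.50, adjusted p = 0.76). Those intervals reach from 0.528 to 1.33 times the EV level with construct 86 and from 0.562 to 1.42 times with construct 87. A change of LMNA inside these limits was not detectable with these libraries, and the block did not bring it past the threshold (adjusted p = 0.268 and 0.527). In a bulk culture, fewer cells that make a transcript and less of it per cell cannot be told apart, here and in what follows.

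LMNB1 (ENSG00000113368.11) encodes lamin B1, one of the B-type lamins. Its 3 construct 86 libraries held 952.3, 935.2 and 869.9 normalised reads, its construct 87 libraries 1033, 1900 and 1318, and its EV libraries 2245, 2908 and 1331. Every construct 86 library was below every EV library, whereas with construct 87 replicate 2 and EV replicate 3 crossed. LMNB1 fell 2.24-fold with construct 86 (log2 fold change -1.16 ± 0.30 SE, adjusted p = 0.0125), and the call held in 9 of 9 fits that left out 1 library. With construct 87 its log2 fold change was -0.58 ± 0.30, with a 95% interval of -1.24 to 0.07, and did not pass (adjusted p = 0.234, and 0.0613 with the block). LMNB1 was 1.49-fold higher with construct 87 than with construct 86, without overlap of the libraries (adjusted p = 0.18, and 0.0484 with the block). For the mean of both constructs LMNB1 fell 1.83-fold (log2 -0.87 ± 0.26, adjusted p = 0.033). That call ended when any of 6 libraries was left out: EV replicate 1 (adjusted p = 0.13), EV replicate 2 (0.0788), construct 86 replicates 1 (0.0515), 2 (0.0633) and 3 (0.0582), or construct 87 replicate 1 (0.0711).

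LMNB2 (ENSG00000176619.12) encodes lamin B2, the other B-type lamin. It stood at 1878, 1802 and 1270 normalised reads with construct 86, at 1503, 2213 and 1412 with construct 87, and at 2923, 4299 and 1496 in EV libraries. EV replicate 3 lay among the knockdown libraries, and each knockdown library lay below the EV library of its own number. The log2 fold changes were -0.71 ± 0.35 SE with construct 86 and -0.67 ± 0.35 with construct 87, neither past the threshold (adjusted p = 0.138 and 0.25). With the replicate block both passed (adjusted p = 0.0114 and 0.0282), as they did without EV replicate 3 (log2 -1.12 and -1.08, 0.0166 and 0.0482). Without EV replicate 2 they were -0.36 and -0.32 (0.366 and 0.489). For the mean of both constructs the log2 fold change was -0.69 ± 0.30 (adjusted p = 0.122, and 0.0081 with the block). The construct 86 value also passed with the trend over transcript length removed (log2 -0.92, adjusted p = 0.033). TIMM13, at 633.0 to 2162.7 normalised reads, overlaps LMNB2 on the same strand at its 3' end in the GENCODE annotation. Reads there could be assigned to either gene.

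LBR (ENSG00000143815.14), the lamin B receptor, is a membrane protein that binds B-type lamins and the heterochromatin protein HP1 and also carries a sterol reductase domain. It stood at 1041, 834.5 and 940.6 normalised reads with construct 86, at 1178, 1328 and 1411 with construct 87, and at 1961, 1748 and 1689 in EV libraries. The 3 groups did not overlap, with construct 86 lowest, construct 87 between and EV highest. LBR fell 1.92-fold with construct 86 (log2 -0.94 ± 0.17 SE, adjusted p = 0.00223) and, for the mean of both constructs, 1.63-fold (log2 -0.70 ± 0.15, adjusted p = 0.00813). Both calls held in 9 of 9 fits without 1 library. With construct 87 alone the log2 fold change was -0.46 ± 0.17, which did not pass (adjusted p = 0.107), but did with the block (0.0347). LBR was 1.39-fold higher with construct 87 than with construct 86 (log2 0.48 ± 0.17, adjusted p = 0.0623), a difference that passed with the block (0.0218), with the length trend removed (0.0359) and when every gene above 0 was tested (0.0424).

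TMPO (ENSG00000120802.13) encodes the LAP2 proteins, LEM domain proteins of which the beta form sits in the inner membrane and binds B-type lamins, while the alpha form is nucleoplasmic and binds lamin A and the retinoblastoma protein. Gene-level counts do not separate the forms, which end at 5 distinct 3' positions in the annotation. TMPO stood at 2842, 2134 and 2564 normalised reads with construct 86, at 1275, 1906 and 2357 with construct 87, and at 4006, 3943 and 3361 in EV libraries. All 6 knockdown libraries lay below all EV libraries, and the constructs overlapped each other. TMPO fell 2.1-fold with construct 87 (log2 -1.07 ± 0.24 SE, adjusted p = 0.019) and 1.78-fold for the mean of both constructs (log2 -0.83 ± 0.20, adjusted p = 0.0161). Leaving out EV replicate 1 (adjusted p = 0.0744), construct 87 replicate 1 (0.0831) or construct 87 replicate 2 (0.0551) ended the construct 87 call, and leaving out EV replicate 1 (0.0729) ended that for the mean. With construct 86 the log2 fold change was -0.59 ± 0.24 (adjusted p = 0.0733), which passed with the block (0.0346), with the length trend removed (0.0287) and without construct 87 replicate 1 (0.0437). The constructs were not shown to differ (log2 -0.48 ± 0.24 SE, construct 87 minus construct 86, adjusted p = 0.163). An antisense gene, TMPO-AS1, overlaps TMPO, at 61.3 to 222.2 normalised reads.

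Because LMNB1, LBR and TMPO are the members called against EV, the DNA around their transcription starts is given here from 250 bases before to 50 after the start (RefSeq, build GRCh38.p14), read 5' to 3' on the strand of the gene. The LMNB1 window is the downstream of 2 listed starts, chr5:126776886-126777185 on the plus strand. The LBR window is chr1:225428772-225429071 on the minus strand, and the TMPO window is the first of 2 starts, chr12:98515323-98515622 on the plus strand. Capitals mark the CCAAT box or, on the other strand, its reverse complement.
LMNB1: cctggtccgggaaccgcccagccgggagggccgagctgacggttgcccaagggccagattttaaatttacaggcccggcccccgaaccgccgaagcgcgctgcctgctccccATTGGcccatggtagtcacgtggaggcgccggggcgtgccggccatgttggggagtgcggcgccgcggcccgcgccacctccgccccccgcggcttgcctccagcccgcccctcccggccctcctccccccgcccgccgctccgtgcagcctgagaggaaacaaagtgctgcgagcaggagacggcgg
LBR: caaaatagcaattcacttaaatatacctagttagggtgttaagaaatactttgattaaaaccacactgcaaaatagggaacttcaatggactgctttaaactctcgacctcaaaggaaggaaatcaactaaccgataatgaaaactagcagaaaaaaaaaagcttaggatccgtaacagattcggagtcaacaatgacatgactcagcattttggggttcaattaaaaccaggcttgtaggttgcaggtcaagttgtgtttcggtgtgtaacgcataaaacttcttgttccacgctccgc
TMPO: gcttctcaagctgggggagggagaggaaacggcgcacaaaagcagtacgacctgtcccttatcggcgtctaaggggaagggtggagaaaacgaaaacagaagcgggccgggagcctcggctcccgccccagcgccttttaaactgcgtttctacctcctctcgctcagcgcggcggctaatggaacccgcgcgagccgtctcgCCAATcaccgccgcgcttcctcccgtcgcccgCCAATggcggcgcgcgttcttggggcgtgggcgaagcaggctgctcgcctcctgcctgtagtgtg
The motifs searched, on both strands, were CCAAT, which binds NF-Y, the E2F core, spelled TTCCCGC or with the letters TTGGCGC or with the letters TTCGCGC or with the letters TTGCCGC, and the CHR element, spelled TTTGAA or with the letters TTCGAA, all 3 known from promoters of cell division genes. The LMNB1 window held 1 CCAAT match, on the opposite strand and 138 bases before the start, and the TMPO window held 2, starting 47 and 15 bases before the start. Of the windows not printed, the upstream one of LMNB1 held none of the 3 motifs. The other one of TMPO overlaps the printed one and held the same 2 CCAAT matches. The LBR window held none of the 3 motifs, which says only that these letters are not in this window. Windows were listed for 9 of the 10 genes. Of their 17 windows, 8 held CCAAT, 3 the E2F core (LMNA, LEMD3 and SYNE2) and 2 the CHR element (LMNB2 and SUN2). The 8 count both TMPO windows, which share the same matches. Of all 35116 windows listed, 34.6% held CCAAT, 13% the E2F core and 16.4% the CHR element. A match is a description of the letters and not a bound site.

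EMD (ENSG00000102119.10) encodes emerin, a LEM domain protein of the inner membrane whose loss causes Emery-Dreifuss muscular dystrophy. It stood at 757.6, 748 and 735.5 normalised reads with construct 86, at 1255, 1243 and 1125 with construct 87, and at 1072, 934.8 and 692.4 in EV libraries. The construct 86 libraries lay close together within the range of EV, and the construct 87 libraries lay above all others. EMD was 1.61-fold higher with construct 87 than with construct 86 (log2 0.69 ± 0.19 SE, adjusted p = 0.0226). Leaving out any construct 86 library, replicate 1 (adjusted p = 0.0559), 2 (0.072) or 3 (0.0621), or construct 87 replicate 1 (0.0722) or 2 (0.0758), ended that call. EMD has the shortest longest transcript of the 10, 1379 bases, and with the length trend removed the difference was 0.49 (adjusted p = 0.14). Against EV the log2 fold change was -0.25 ± 0.19 with construct 86 (adjusted p = 0.335), which turned to 0.12 with the length trend removed, and 0.45 ± 0.19 with construct 87 (adjusted p = 0.159, and 0.0437 with the block).

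LEMD3 (ENSG00000174106.2) encodes MAN1, a LEM domain protein that binds SMAD proteins and restrains TGF-beta and BMP signalling. It stood at 695.3, 716.2 and 617.6 normalised reads with construct 86, at 381.4, 419.3 and 373.6 with construct 87, and at 603.2, 514.2 and 532 in EV libraries. The 3 groups did not overlap, with construct 87 lowest, EV between and construct 86 highest. LEMD3 was 1.72-fold lower with construct 87 than with construct 86 (log2 -0.79 ± 0.17 SE, adjusted p = 0.00678), a call that held in 9 of 9 fits without 1 library. Neither construct passed against EV on its own, with log2 0.30 ± 0.17 for construct 86 (adjusted p = 0.188) and -0.49 ± 0.17 for construct 87 (adjusted p = 0.0901, and 0.0266 with the block).

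SUN1 and SUN2 cross the inner membrane and reach the nesprins of the outer membrane, so that the lamina is joined to the cytoskeleton. SUN1 (ENSG00000164828.17) stood at 1271, 1681 and 1448 normalised reads with construct 86, at 958.2, 1075 and 935.5 with construct 87, and at 1169, 1518 and 1306 in EV libraries. SUN2 (ENSG00000100242.15) stood at 1384, 1918 and 1653 with construct 86, at 887.4, 1185 and 889.4 with construct 87, and at 1053, 1521 and 862.5 in EV libraries. For both genes the construct 87 libraries lay below all construct 86 libraries, and replicate number 2 was the highest of each group. SUN1 was 1.47-fold lower with construct 87 than with construct 86 (log2 -0.56 ± 0.18 SE, adjusted p = 0.0441) and SUN2 1.67-fold lower (log2 -0.74 ± 0.24, adjusted p = 0.0438). Both calls stood near the threshold. The SUN1 call ended on leaving out EV replicate 3 (adjusted p = 0.0514), construct 86 replicate 2 (0.174) or 3 (0.0984), or construct 87 replicate 1 (0.116), 2 (0.0791) or 3 (0.125). It also ended on the values as deposited (0.0502) and without a variance trend (0.062). The SUN2 call ended on leaving out EV replicate 1 (0.0573), construct 86 replicate 1 (0.0528), 2 (0.155) or 3 (0.0962), or construct 87 replicate 1 (0.13) or 3 (0.124), and without a variance trend (0.0606). With the block both were smaller (0.00551 and 0.0024).

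Against EV, the SUN genes passed in neither comparison. SUN1 had a log2 fold change of 0.14 ± 0.18 SE with construct 86 (adjusted p = 0.576) and -0.42 ± 0.18 with construct 87 (adjusted p = 0.162), where its libraries lay below all EV libraries and the block gave 0.0328. SUN2 had 0.56 ± 0.24 with construct 86 (adjusted p = 0.094, 0.00937 with the block and 0.0154 without EV replicate 2) and -0.19 ± 0.24 with construct 87 (adjusted p = 0.648). Other genes cover both 3' ends in the annotation. GET4 lies on the strand of SUN1 at 23.2 to 50.8 normalised reads, and GTPBP1 lies opposite SUN2 at 166.9 to 491.3. Whether the authors' counting used strand is not given in the sources used here, so reads of SUN2 and GTPBP1 may not be separable.

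SYNE2 (ENSG00000054654.16) encodes nesprin-2, a giant protein that binds SUN proteins and, in its long form, actin. It had few reads, 22 to 209 per library. It stood at 203.5, 155.4 and 50.68 normalised reads with construct 86, at 80.29, 76.62 and 22.52 with construct 87, and at 65.91, 133.1 and 24.92 in EV libraries. The groups overlapped, and replicate number 3 was lowest in each. The log2 fold change was 0.94 ± 0.70 SE with construct 86 and -0.22 ± 0.70 with construct 87 (adjusted p = 0.314 and 0.872). With the block, whose error was 0.27, SYNE2 passed with construct 86 (adjusted p = 0.012) but not with the length trend also removed (log2 0.58, 0.0581). Without the block, its value with construct 86 was 0.32 without EV replicate 3 (0.753) and 1.51 without EV replicate 2. With the block it also passed between the constructs, where the log2 difference, construct 87 minus construct 86, was -1.16 (0.00512 with the block and 0.255 without).

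**Figure D2:**
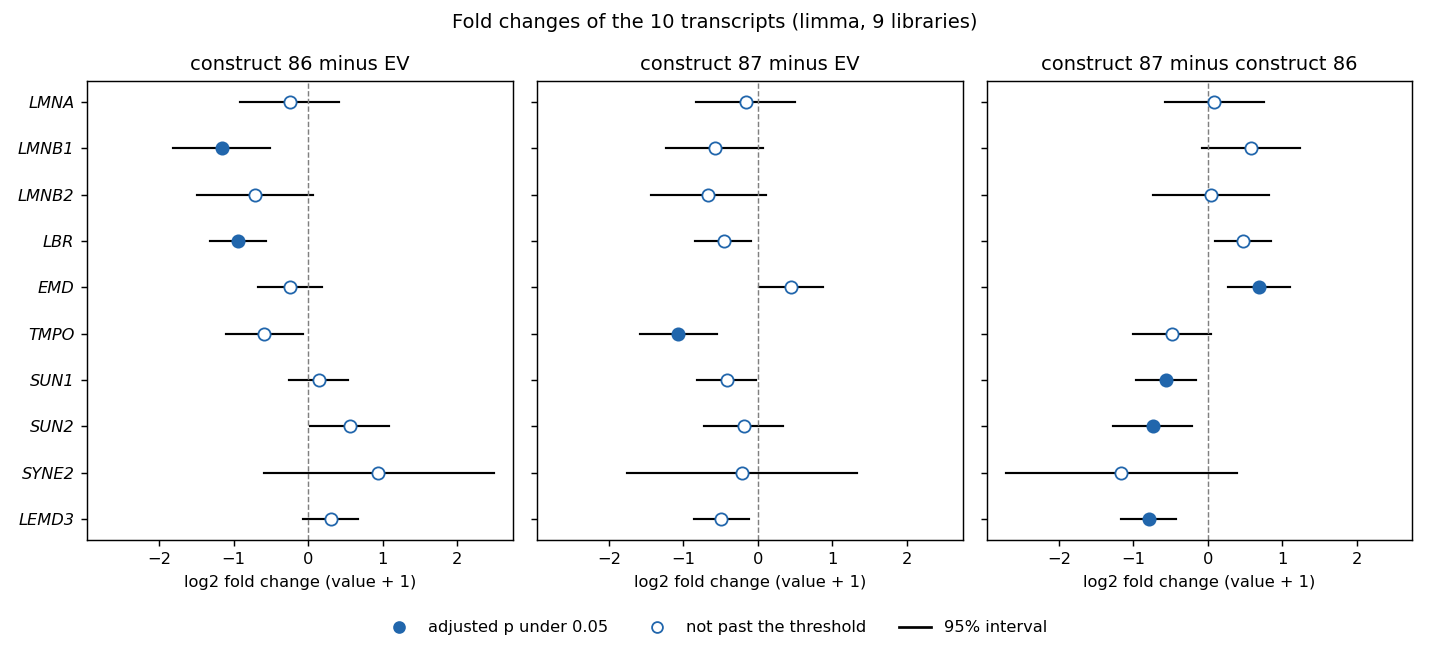
Log2 fold changes (x axis) of the 10 transcripts (y axis) with 95% intervals from limma, for each construct against EV and for construct 87 against construct 86. The intervals of LMNB1 and LBR with construct 86 and of TMPO with construct 87 lie below 0, at -1.16, -0.94 and -1.07, and those of LMNA cross 0 in each comparison. Intervals are not adjusted for the number of genes, and some exclude 0 without a call. Examples are TMPO with construct 86 (-1.11 to -0.07) and EMD with construct 87 (0.02 to 0.87).

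By sign alone, with 3 of these 8 values past the threshold, LMNB1, LMNB2, LBR and TMPO had negative log2 fold changes against EV with both constructs, from -0.46 to -1.16. SUN1, SUN2, SYNE2 and LEMD3 had positive values with construct 86 (0.14 to 0.94, and 0.01, 0.43, 0.58 and 0.08 in that order of genes with the length trend removed) and negative values with construct 87 (-0.19 to -0.49, where SUN2 and SYNE2 turned to 0.04 and 0.35 without EV replicate 2, and SYNE2 to 0.37 without construct 87 replicate 3). EMD had the opposite signs, its negative value turning positive with the length trend removed. The constructs share the same EV libraries, so these pairs of values are not independent. Counted by libraries that do not overlap, 4 of 10 genes were apart from EV with construct 86 (LMNB1, LBR and TMPO lower, LEMD3 higher), beside 45.3% of all genes, 22.8% lower and 22.5% higher. With construct 87 it was 5 of 10 (TMPO, LBR, SUN1 and LEMD3 lower, EMD higher), beside 29.2%, 14% lower and 15.3% higher. Between the constructs, 6 of 10 were apart (EMD, LMNB1 and LBR higher and SUN1, SUN2 and LEMD3 lower with construct 87), beside 45.3%, 22.9% higher and 22.4% lower. For the mean of both constructs, 2 of 10 (TMPO and LBR) were apart, both lower, beside 15.6% in either direction and 6.97% lower.

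**Figure D3:**
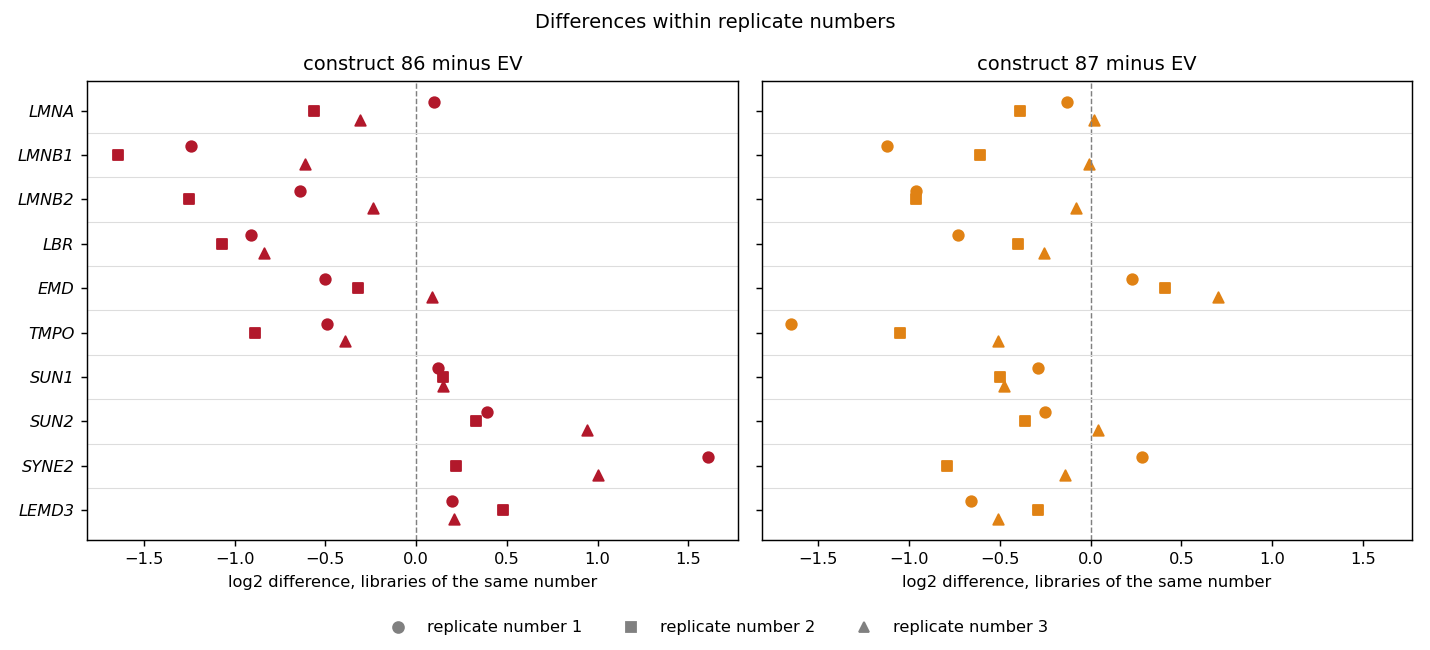
Log2 difference (x axis) of each knockdown library from the EV library of the same replicate number for the 10 transcripts (y axis), with 1 point per number for construct 86 and construct 87. All 6 points of LMNB1, LMNB2, LBR and TMPO lie below 0, between -1.65 and -0.01.

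Paired by replicate number, LMNB1, LMNB2, LBR and TMPO were lower than EV in 3 of 3 pairs with each construct. For LMNB1 the differences were -1.24, -1.64 and -0.61 with construct 86, and for construct 87 they were -1.12, -0.61 and -0.01. The pair of number 3 was the smallest for both constructs, and its EV library was the lowest of the EV group. For LBR the differences were -0.91, -1.07 and -0.84 with construct 86, and for construct 87 they were -0.73, -0.40 and -0.26. Every pair was further below EV with construct 86. SUN1 and LEMD3 were higher in 3 of 3 pairs with construct 86 and lower in 3 of 3 with construct 87, while SUN2 and SYNE2 were higher in 3 of 3 pairs with construct 86. LMNA was lower in 2 of 3 pairs with each construct.

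The balance of these transcripts was followed as log2 ratios of normalised reads within each library, where only differences between groups can be read because 3' tags of 2 genes need not be captured equally. The ratio of LMNB1 to LMNA was -4.82, -4.63 and -4.10 with construct 86, -4.47, -3.78 and -3.83 with construct 87 and, in EV libraries, -3.48, -3.56 and -3.79. Construct 86 lay below all EV libraries, and construct 87 overlapped them. The ratio was 1.88-fold lower with construct 86 (difference -0.91, exact permutation p = 0.1), and the difference was -0.42 with construct 87 (exact permutation p = 0.2). Over all 6 knockdown libraries against 3 EV libraries it was -0.66 (exact permutation p = 0.0476, and 0.225 after adjustment over the 9 ratio tests). Paired by replicate number it was lower in 3 of 3 pairs, with an exact sign-flip p of 0.25, the smallest that 3 pairs allow. Without 1 library the exact permutation p was 0.0714 to 0.143 in 8 of 9 cases, and the difference was past 0.05 only before adjustment and with all 9 libraries or without construct 87 replicate 2. With an EV library left out, 6 libraries against 2 cannot give an exact permutation p below 0.0714. Those cases could not pass 0.05 whatever the values, so they do not test whether the difference holds.

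The ratio of LBR to LMNA averaged -4.49 ± 0.44 with construct 86, -4.10 ± 0.32 with construct 87 and -3.80 ± 0.44 in EV libraries (SD, n = 3 each). These overlapped, with differences of -0.69 and -0.30 and exact permutation p of 0.2 and 0.3. The ratio of SUN2 to SUN1 was 0.17 ± 0.04 with construct 86, -0.01 ± 0.14 with construct 87 and -0.25 ± 0.31 in EV libraries. Construct 86 lay above all EV libraries (difference 0.42, exact permutation p = 0.1) and construct 87 overlapped them (0.23, exact permutation p = 0.4). All adjusted p over the 9 ratio tests were between 0.225 and 0.4.

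**Figure D4:**
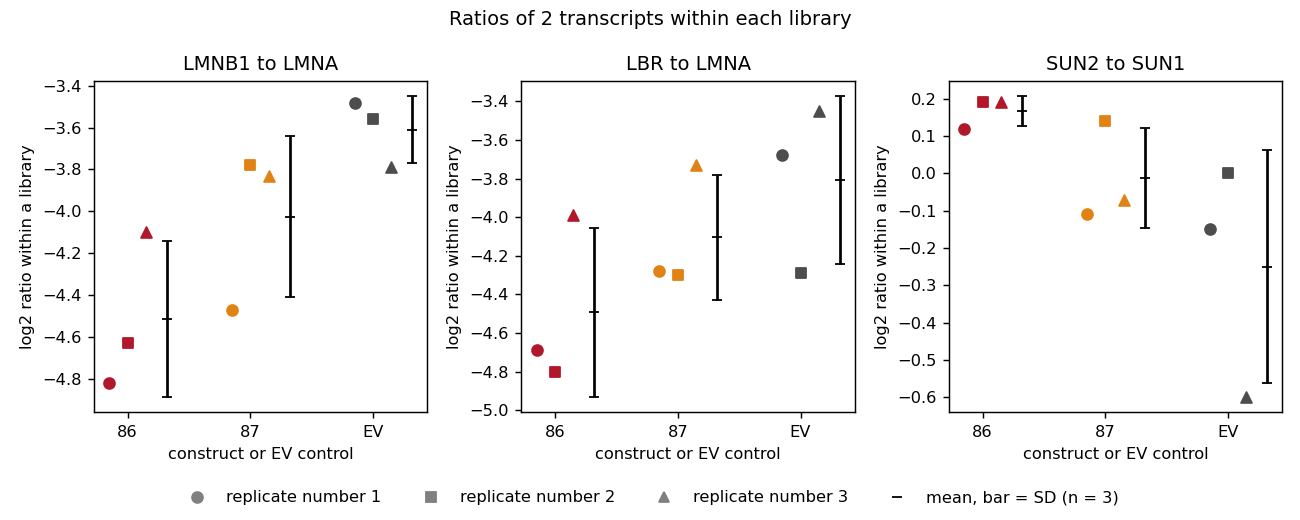
Log2 ratio of normalised reads (y axes) of LMNB1 to LMNA, LBR to LMNA and SUN2 to SUN1 in each library of construct 86, construct 87 and the EV control (x axes), with the mean and SD of 3 libraries. The LMNB1 to LMNA ratio of construct 86, from -4.82 to -4.10, lies below that of EV, from -3.79 to -3.48.

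Other genes of the lamina and envelope were counted from 5 lists with 34 tested genes, chosen with earlier results known. Of these 34, 9 rose and 2 fell with construct 86, beside 18% and 17.6% of all genes. With construct 87, 2 rose, beside 5.91% of all genes. Between the constructs, 1 was higher and 8 were lower with construct 87 than with construct 86, beside 12.7% and 12.9%. Their median log2 fold change was 0.12 with construct 86, against -0.04 over all genes, and -0.05 with construct 87, against -0.00. The 9 that rose with construct 86 were LEMD1, LEMD2, ANKLE2, TOR1A, TOR1AIP1, TOR1AIP2, RCE1, CNEP1R1 and PPAPDC3. Of the 9, all except LEMD1 and RCE1 were among the 8 lower with construct 87 than with construct 86, the eighth being ICMT.

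Among LEM domain genes, LEMD1, a cancer-testis antigen, averaged 195.5 ± 72.6 normalised reads with construct 86, 162.1 ± 50.1 with construct 87 and 50.4 ± 31.6 in EV libraries (SD, n = 3 each). Its libraries lay above EV with both constructs, and it rose 4.21-fold with construct 86 (adjusted p = 0.00605) and 3.52-fold with construct 87 (adjusted p = 0.031). BANF1, which encodes BAF, the DNA-bridging partner of the LEM domain, averaged 1366 ± 245 with construct 86, 1388 ± 99 with construct 87 and 2334 ± 616 in EV libraries. BANF1 fell 1.69-fold with construct 86 (adjusted p = 0.0218), and with construct 87 its log2 fold change was -0.72 (adjusted p = 0.0628, and 0.00923 with the block). LEMD2, a partner in sealing the envelope after division, and ANKLE2, which helps BAF return to chromatin, rose 1.6-fold and 1.66-fold with construct 86 (adjusted p = 0.0129 and 0.00618).

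Torsins are ATPases of the space between the nuclear membranes, and TOR1AIP1 and TOR1AIP2 activate them. TOR1AIP1 averaged 3008 ± 630 normalised reads with construct 86, 1301 ± 262 with construct 87 and 1693 ± 188 in EV libraries. It rose 1.76-fold with construct 86 (adjusted p = 0.0152) and was 2.31-fold lower with construct 87 than with construct 86 (adjusted p = 0.00291). TOR3A fell 1.61-fold with construct 86 (adjusted p = 0.0267), and with construct 87 its log2 fold change was -0.67 (adjusted p = 0.0671, and 0.00364 with the block). Of the enzymes that process prenylated lamins, RCE1, a protease that trims the tail after prenylation, rose 1.81-fold with construct 86 (adjusted p = 0.0088), and with construct 87 its log2 fold change was 0.59 (adjusted p = 0.0929, and 0.0172 with the block). ZMPSTE24, the protease that matures prelamin A, did not pass, at log2 0.30 with construct 86 and 0.02 with construct 87 (adjusted p = 0.277 and 0.972). ICMT, which methylates the prenylated tail, was 1.89-fold lower with construct 87 than with construct 86 (adjusted p = 0.0172). CBX1, an HP1 protein, rose 1.69-fold with construct 87 (adjusted p = 0.0311), and RB1 was 1.73-fold higher with construct 87 than with construct 86 (adjusted p = 0.0201).

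Of 20 cell division genes listed and tested, 16 fell with construct 86, beside 17.6% of all genes, and 13 fell with construct 87, beside 4.43%. Their median log2 fold changes were -1.10 with construct 86, against -0.04 over all genes, and -1.11 with construct 87, against -0.00. The part of cell division in the lamin values was not tested. CCNB2, a mitotic cyclin, averaged 316.8 ± 40.2 normalised reads with construct 86, 535.5 ± 121.3 with construct 87 and 1469 ± 136 in EV libraries, and it fell 4.64-fold and 2.78-fold (adjusted p = 9.53e-05 and 0.00364). CCNB1, another mitotic cyclin, fell 3.47-fold with construct 86 (adjusted p = 0.000524) and 2.69-fold with construct 87 (0.00688). MCM6, a subunit of the replicative helicase, fell 2.7-fold with construct 86 (adjusted p = 0.00137) and 3.16-fold with construct 87 (0.00335).

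The genes whose levels tracked LMNA, LMNB1 and LBR most closely over the 9 libraries were named from 11138 genes outside the 10 with a mean of at least 50 and a standard symbol, as a description with no test. LMNA was most like RAB1B (Pearson r = 0.966), POLR3B (0.958) and FTSJ3 (0.958). LMNB1 was most like RBM14 (r = 0.982), CSK (0.981) and XAB2 (0.979). LBR was most like PNPT1 (r = 0.993), HSPD1 (0.992) and LY6K (0.990). The libraries share groups and replicate numbers, so these values are not independent points.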

How the data were processed

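RNA of A375 cells was made into QuantSeq 3' libraries and sequenced, per the labels' protocols. The deposited value per gene is a score, the authors' normalised read count rounded to whole numbers, per the file headers and values. STAR, featureCounts, Subread and edgeR (no version given) and build hg19 are named per the submitters' processing notes. The files give no coordinates.

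Each library's values lie on rounded multiples of 1 constant (0.8516 to 1.1543 per read), from which reads were recovered. All values up to 400 (100%) lay on these multiples, but with a constant under 1 every whole number does. In construct 86 replicates 1 and 2, construct 87 replicate 2 and EV replicate 2 the match is therefore no check of the constant. Neighbouring read numbers can share a value there, so recovered reads and depth are estimates. The 13825 gene IDs tested were above 0 both among the construct 87 libraries and among the other 6. This left out 453 IDs above 0 only with construct 87 and 400 above 0 only in the EV and construct 86 libraries. A difference in filtering between these sets of files could not be told apart from construct 87 itself. Libraries were rescaled together with the TMM formula (30% of log ratios and 5% of abundances trimmed). limma 3.58.1 (R 4.3.3) was fitted to log2(value + 1) with a variance trend, 3 group coefficients and 6 residual degrees of freedom. P-values are two-sided and Benjamini-Hochberg adjusted over 13825 genes, called under 0.05 whatever the fold. The scale of log2(value + 1) understates fold changes of genes with few reads. The script was tested on simulated data for construct 86 against EV only. Those libraries were drawn independently, without an effect of replicate number, unlike the data here. Ratios were compared by exact two-sided permutation (scipy 1.17.1). With 6 libraries against 3 it cannot go below 0.0238.

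For pairing, each library's deviation from its group mean was correlated across the 11812 genes with a mean of at least 50, with r of 0.177 to 0.794 for the 9 pairs of same-numbered libraries in different groups, and of -0.702 to 0.215 for the 18 other pairs. Centring on the group mean ties the values of same-numbered and other pairs together, so the low ones are no separate support. Construct 87 replicate 1 and EV replicate 1 had r of 0.177, below the 0.215 of construct 87 replicate 3 and EV replicate 1. Number 1 was therefore not clearly paired between construct 87 and EV. The pairing is read from these correlations, since the labels give only the numbers. Depth by the recovered reads was 11.31 to 15.56 M, and intervals cover the spread between libraries only. Transcript lengths, 3' ends and overlaps came from GENCODE 29. The length trend was a spline with 4 degrees of freedom. Leukocyte markers are not reported here. Alternatives covered scaling, pseudocount, filters, the variance trend, the block, length and each library left out.

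The 10 members and the gene lists were chosen with earlier results of these data known. Named genes are the 10 members, the SPANX genes above 0, up to 3 genes per list ranked by adjusted p over both constructs, genes on which a count of 5 or fewer rests, and the 3 most like LMNA, LMNB1 and LBR. LEMD2, ANKLE2, TOR1A, TOR1AIP1, ZMPSTE24, CNEP1R1, ICMT and RB1 were named after their values were seen.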

Additional observations from a re-analysis of the deposited data

Results flagged for a closer look

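The effect against EV differed between the constructs, by the test of the difference itself (construct 87 minus construct 86, log2, limma with Benjamini-Hochberg adjustment), for 4 of the 10 transcripts. EMD differed by 0.69 (adjusted p = 0.0226) and was higher in 3 of 3 pairs of the same replicate number. SUN1 differed by -0.56 (adjusted p = 0.0441), SUN2 by -0.74 (0.0438) and LEMD3 by -0.79 (0.00678), each lower in 3 of 3 pairs. The pairs are the same libraries and add no separate support. A difference in processing between the construct 87 libraries and the others could not be told apart from construct 87 itself. The EMD call held in 4 of 9 fits without 1 library, and the LEMD3 call in 9 of 9. Those of SUN1 and SUN2 each held in 3 of 9. With the length trend removed EMD did not pass (0.49, adjusted p = 0.14). Without the variance trend, SUN1 (0.062) and SUN2 (0.0606) did not pass. Over all tested genes 25.6% differed between the constructs, and the sum of the SPANX genes was 36.2 to 103.2 normalised reads with construct 86 and 24.1 to 40.9 with construct 87, against 178.1 to 611.1 in EV libraries.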

How the results depend on the processing

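Of 790 recomputed fold changes of the 10 transcripts, 709 kept their direction and side of the threshold, 36 newly passed it, 31 no longer passed it and 14 changed sign. With the replicate block, genes called were 7646 with construct 86, 4282 with construct 87, 6094 between the constructs and 6492 for the mean of both, in place of 4925, 1430, 3534 and 3339. The block with the length trend removed gave 7560, 4738, 6536 and 6432. For construct 87, testing every gene above 0 gave 2626 and fitting only the 2 groups gave 857. Of the 10 transcripts, the block called 6 with construct 86, 6 with construct 87 and 7 between the constructs, in place of 2, 1 and 4. With the length trend also removed it called 5, 6 and 7, and 5 in place of 3 for the mean of both. Removing the length trend alone gave 4 with construct 86, and omitting the variance trend gave 2 between the constructs. Leaving out 1 library gave 3056 to 6014 genes and 2 to 3 of the 10 with construct 86, 369 to 2554 genes and 0 to 2 of the 10 with construct 87, 2207 to 4191 genes and 1 to 4 of the 10 between the constructs, and 1459 to 4748 genes and 1 to 4 of the 10 for the mean of both.

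The LMNB1 to LMNA ratio for both constructs was -0.66 under the block, with p = 0.25 by exact sign-flip permutation, the smallest that 3 pairs allow, and lower in 3 of 3 pairs, and was -0.76 to -0.55 without 1 library. Sign changes were found only for fold changes that had not passed. EMD with construct 86 was 0.12 with the length trend removed, with or without the block. Without 1 library, the ranges that crossed 0 were, with construct 87 against EV, -0.39 to 0.06 for LMNA, -0.37 to 0.04 for SUN2 and -0.84 to 0.37 for SYNE2. Between the constructs they were -0.16 to 0.27 for LMNA and -0.16 to 0.17 for LMNB2. For the mean of both they were -0.43 to 0.01 for LMNA, -0.08 to 0.24 for EMD, -0.00 to 0.41 for SUN2 and -0.26 to 0.93 for SYNE2. The cause of these shifts was not tested.

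The planned edgeR and DESeq2 fits were not run, so the calls rest on limma alone. SYNE2 had 22 to 209 reads per library. The 3 libraries per group leave LMNA intervals that reach from -0.92 to 0.41 with construct 86.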

Other observations

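Within groups, the 10 transcripts differed in spread. EMD varied by a coefficient of variation of 1.48% with construct 86, 5.96% with construct 87 and 21.4% in EV libraries. LMNB1 varied by 4.73% with construct 86, 31.2% with construct 87 and 36.6% in EV libraries. SYNE2 varied by 57.2%, 54.1% and 73.2% in the same order of groups, and its highest library was 4.01, 3.57 and 5.34 times the lowest. With 3 libraries a group, no test of these spreads was made.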
